A study of Solanum lycopersicum var. cerasiforme with 6 samples.

Results

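The expression levels described here are those of the water-injected control (CK) in a study of abscisic acid (ABA) in ripening tomato. Fruits of the cherry tomato 'XinTaiyang' (Solanum lycopersicum var. cerasiforme) were picked mature green and each received an injection of 25 μL, which was distilled water in CK, ABA at 10 mM in the second group and nordihydroguaiaretic acid (NDGA, used to repress endogenous ABA) at 1 mM in the other, and were kept in the dark until day 9. At that day the fruits were around the breaker stage, when the first colour appears. Seeds and sepals were discarded and RNA of the remaining pericarp, pooled over several fruits, was sequenced in 2 libraries per group. CK is therefore a wounded and injected fruit, not an intact one. Members were the entries of the deposited table of all loci that list exactly 1 gene identifier and whose locus is longer than 300 bp, ranked by their CK value in FPKM (fragments scaled to transcript length and to all mapped fragments of a library, which allows levels to be compared between genes of different length). They were 24359 of 31571 entries and covered 20974 distinct genes. The table holds 1 CK value per entry, the authors' mean over both libraries, so no value has an SD, an n or a test, and every statement below is a description of that mean. Library depth was not analysed here, and the table does not give the number of fragments behind a value, so the counting error of a level could not be computed.

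Mature green tomato is a firm, green, starch-holding fruit, and its pericarp turns within days into a soft, red and aromatic tissue. Ethylene made from methionine drives this change in tomato. Under its influence plastids lose chlorophyll and fill with carotenoids, walls are loosened by expansins and pectin-degrading enzymes, and sugars, acids and volatiles build up. Messages of such a bulk tissue range from a few housekeeping and ripening transcripts at very high levels to many regulators at low ones.

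A CK level of 1 FPKM or more was listed for most members. By class, 7914 members (32.5%) lay from 1 to 10 FPKM, 8344 (34.3%) from 10 to 100, 1378 (5.66%) from 100 to 1000 and 121 (0.497%) above 1000. Another 4726 members (19.4%) were above 0 and below 1 FPKM, and 1876 (7.70%) were listed at 0. The median over all members was 5.71 FPKM, with quartiles of 0.800 and 22.1. Over the 22483 members above 0 the median was 7.26 FPKM.

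Many entries could not be read on their own. For 6501 members (26.7%) the gene had more than 1 entry, and for 8820 members (36.2%) the locus was listed for more than 1 entry. In 1440 members above 0 in CK (5.91%) the value in ABA, NDGA or both was exactly 0, and these are called doubtful here, because the files do not show whether such a 0 is an absent message or a failed estimate. A subset of 14374 members was alone for its gene and its locus and not doubtful in this sense, and is called the lone entries below. It was defined after the data were seen and keeps 1598 members listed at 0 in CK. Its median was 8.29 FPKM, and 48 lone entries were above 1000, 1009 from 100 to 1000, 5687 from 10 to 100, 3673 from 1 to 10 and 2359 above 0 and below 1.

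**Figure D1:**
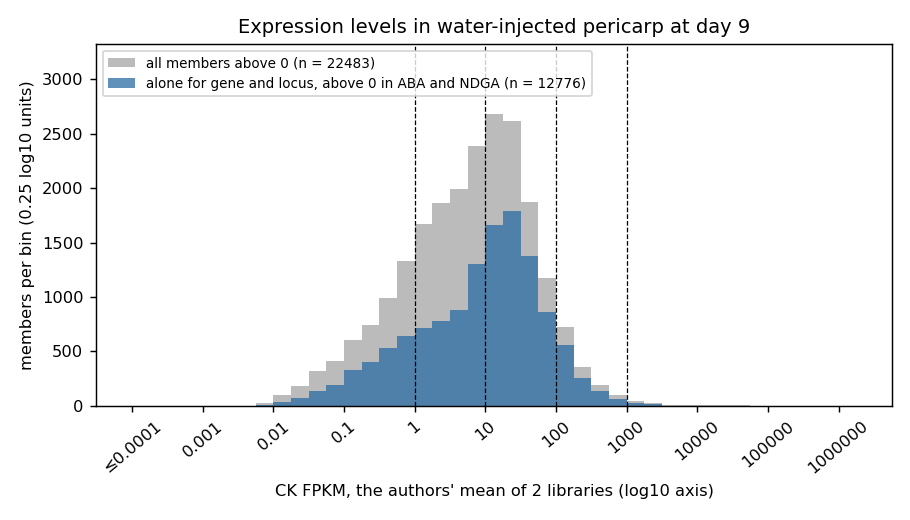
Number of members per bin of CK FPKM (horizontal log10 axis, vertical axis members per bin), grey for all 22483 members above 0 and blue for the 12776 lone entries above 0, with dashed lines at the class bounds of 1, 10, 100 and 1000 FPKM. Both distributions have their highest bins between 10 and 100 FPKM and a long arm towards low values.

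The class above 1000 FPKM differed in kind from the class below it. Of its 121 members, 43 (35.5%) had no annotation text, against 13.9% from 100 to 1000, 14.3% from 10 to 100 and 21.6% from 1 to 10. Its share of sole entries of a gene and locus was 43.8% (53 members), near the 47.4% of the class from 1 to 10 and below the 63.8% of all members. On chromosome 11 lay 23 of the 121 (19.0%), against 7.44% of all members. A KEGG pathway was given for 13.2% of this class, for 31.1% of the class from 100 to 1000, for 15.8% from 10 to 100 and for 7.37% from 1 to 10.

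These 121 members held 87.4% of the summed FPKM of all members. The 10 highest held 72.5%, the 100 highest 86.9% and the 1000 highest 92.8%, and 3 entries alone passed 50% of the sum. Among the lone entries the 10 highest held 27.7%, the 100 highest 42.6% and the 1000 highest 69.8%, and 217 entries were needed to reach 50%. The sum over the lone entries was 692371 FPKM, against 4997097 FPKM over all members.

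**Figure D2:**
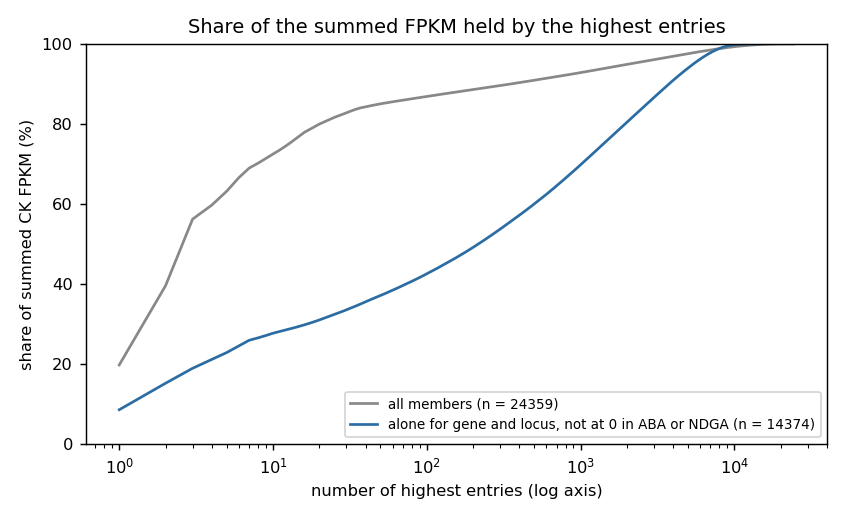
Cumulative share of the summed CK FPKM (vertical axis, %) held by the highest entries (horizontal log axis, number of entries), grey for all 24359 members and blue for the 14374 lone entries. The grey curve is at 72.5% with 10 entries, where the blue curve is at 27.7%.

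The top of the ranking was mostly made of entries without an annotated product. Solyc11g027710.1 and Solyc12g033020.1 were both listed at exactly 988672 FPKM, a level at which a message of a kilobase would take nearly all fragments of a library. The same value was listed for 6 entries of the table, 4 of them without a gene, and 5 of the 6 were at 0 in both ABA and NDGA. Solyc12g033020.1, annotated as an NADH-ubiquinone/plastoquinone (complex I) protein of the respiratory chain, is the member among these 5. Solyc07g026660.2 followed at 832254 FPKM, with a second entry at 968. The next were Solyc11g051200.1 at 175541 FPKM, Solyc11g027670.1 at 173288, Solyc11g027660.1 at 169487 and Solyc03g116200.1 at 119280. All 4 lack an annotation text and share their locus with other entries.

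Of the 32 members at 10000 FPKM or more, 22 lay on a locus with several entries, and Solyc12g033020.1 was among the 10 that did not. The locus on chromosome 11 from 15199923 to 15345919 (SL2.40, as listed by the authors) had 10 entries, all of them members, with a median of 27048 FPKM, and 7 of them were above 1000. It held Solyc11g027710.1, Solyc11g027670.1, Solyc11g027660.1 and also Solyc11g027640.1 at 46775 FPKM. A locus at 42885184 to 42995785 of chromosome 11 had 3 entries, all above 1000, among them Solyc11g051190.1 at 54724 FPKM. Other wide loci had far lower medians, though some were above the 5.71 FPKM of all members. On chromosome 7, the 22 members at 61527120 to 61756987 had a median of 17.6 FPKM. The widest sharing, 68 entries at 63963192 to 64520781 of chromosome 10, had 64 members with a median of 9.35 FPKM, and its highest, the UDP-glycosyltransferase Solyc10g085880.1, reached 6576 FPKM.

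Between 10000 and 100000 FPKM, annotated genes appeared beside further unannotated ones. Solyc06g024260.1 at 61328 FPKM, Solyc09g059780.1 at 59473, Solyc00g143770.1 at 47683 and Solyc06g024340.1 at 45832 carried no annotation. Solyc09g059780.1 and Solyc06g024340.1 were the highest lone entries. The target of rapamycin kinase (Solyc03g051700.1), a growth regulator, was listed at 39292 FPKM in 1 entry and at 0.162 in another. An HXXXD-type acyl-transferase (Solyc10g008660.1) was at 28225 and 10.8 FPKM, a phosphoglycerate mutase family protein (Solyc04g015330.2) at 26973 and 8.84, and rotamase FKBP 1 (Solyc04g077660.2), a prolyl isomerase, at 16036 and 4.53. For each of these genes the 2 listed values lie more than 1000-fold apart, so the level of the gene is not given by either. The NADH-ubiquinone oxidoreductase-related Solyc11g005880.1, a subunit of the respiratory chain, had 3 entries from 2.27 to 11821 FPKM. Solyc10g021280.1 at 17823 FPKM and Solyc11g063500.1 at 11448 were unannotated and also had a second entry below 5 FPKM.

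Lone entries with an annotation were fewer at these levels. Metallothionein 2A (Solyc09g010800.2, chromosome 9 at 4094900 to 4096611), a small cysteine-rich protein that binds metals, was at 11449 FPKM. The other metallothioneins were far lower, at 162 FPKM for Solyc06g076140.2, 153 for Solyc01g112230.2, 51.3 for Solyc04g058150.2 and 0.833 for Solyc04g058100.2. A VMA21-like protein (Solyc11g065610.1), of the kind that helps assemble the vacuolar proton pump, was at 25894 FPKM. Solyc00g006470.1 at 15306 FPKM, Solyc04g071610.2 at 11940 and Solyc07g049140.2 at 9780 were lone entries without an annotation. Entries without annotation text held 26.6% of the summed FPKM of the lone entries.

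The protective enzymes were led by catalase 2 (Solyc12g094620.1), which breaks down hydrogen peroxide, at 4081 FPKM, whereas the other catalase entries were at 150.0 (Solyc02g082760.2) and 95.1 (Solyc04g082460.2). Copper/zinc superoxide dismutase 1 (Solyc01g067740.2), which turns superoxide into hydrogen peroxide, was at 2104 FPKM, and the other 7 superoxide dismutase entries were at or below 192. Ascorbate peroxidase 2 (Solyc09g007270.2) was at 573 FPKM. Of 81 antioxidant enzyme entries, 20 (24.7%) were at 100 FPKM or more, and their median was 34.9, against 6.15% and 5.71 for all members.

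Carotenoid synthesis had 1 step in the highest class among its lone entries. Phytoene synthase, which makes the first colourless carotene, was at 2795 FPKM in Solyc03g031860.2 and at 8.32 in Solyc02g081330.2. Phytoene desaturase 3 (Solyc03g123760.2), of the next step, was at 66.0 FPKM. Phytoene desaturation 1 (Solyc05g041200.2), which in Arabidopsis acts in plastoquinone synthesis and is no desaturase, was at 208 FPKM, and the carotenoid isomerase Solyc10g081650.1 was at 118. The 15-cis-zeta-carotene isomerase Solyc12g098710.1 had entries at 1371 and 39.5 FPKM, on a locus shared by 6 entries, so its level is not given by either. Over the 34 entries of the list the median was 7.02 FPKM, and 5 (14.7%) were at 100 or more, against 6.15% of all members.

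Ethylene is made from S-adenosylmethionine through 1-aminocyclopropane-1-carboxylate (ACC). S-adenosylmethionine synthetase 1 (Solyc01g101060.2) was at 945 FPKM and synthetase 2 (Solyc12g099000.1) at 156. Adenosylmethionine decarboxylase (Solyc05g010420.1), which draws the same precursor into polyamines, was at 3949 FPKM. Of the ACC synthases, LeACS2 (Solyc01g095080.2) was at 297 FPKM and LeACS4 (Solyc05g050010.2), also labelled ACC synthase 1, at 121. The gene labelled LeACS1A is another, Solyc08g081550.2, at 41.6 FPKM. The ethylene-forming enzyme Solyc02g036350.2, labelled ACC oxidase 4 in the deposited ethylene table, was at 661 FPKM. A higher ACC oxidase, LeACO1 (Solyc07g049530.2), was no member because its entry also names Solyc07g049550.2, and that merged entry was at 2157 FPKM. In the list of 15 entries for this pathway, 6 (40%) were at 100 FPKM or more, against 6.15% of all members, with a list median of 41.6.

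Entries of the list for pectin and wall remodelling were mostly low, and their share of high entries was near that of all members. Of 168 entries for pectin and wall remodelling, 88 (52.4%) were below 1 FPKM or at 0, against 27.1% of all members. Another 44 lay from 1 to 10 and 25 from 10 to 100. The other 11 (6.55%) were at 100 or more, against 6.15% of all members, and the median was 0.813. The highest were xyloglucan endotransglucosylase/hydrolase 30 (Solyc01g081060.2), which cuts and rejoins wall xyloglucan, at 1229.7 FPKM, glycosyl hydrolase 9B1 (Solyc09g010210.2), an endoglucanase, at 969.6 and expansin A4 (Solyc06g051800.2) at 730.3. The next expansin, expansin A13 (Solyc03g031840.2), was at 42.1 FPKM. Another 47 entries, outside that list, were annotated as pectin lyase-like, a fold shared by enzymes that cut pectin. Among them Solyc10g080210.1 at 10575 FPKM was doubtful, being listed at 0 in ABA. Solyc03g111690.2 at 2131 FPKM was a lone entry. The median of the 47 was 1.88 FPKM, and 4 (8.51%) were at 100 or more.

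The class above 1000 also held lipoxygenase 1 (Solyc01g099190.2) at 1428 FPKM, which oxidises fatty acids, and alcohol dehydrogenase 1 (Solyc06g059740.2) at 1081.5. These 2 were the highest of 35 lipoxygenase and alcohol dehydrogenase entries, whose median was 5.67 FPKM, near the 5.71 of all members. Of the 35, 6 (17.1%) were at 100 FPKM or more and 11 (31.4%) below 1 or at 0, against 6.15% and 27.1% of all members. A family 32 glycosyl hydrolase (Solyc03g083910.2), the family of the invertases, was at 2335 FPKM. The enzyme 2-isopropylmalate synthase 1 (Solyc08g014130.2), of leucine synthesis, was at 1603 FPKM, and glutamate decarboxylase (Solyc03g098240.2), which makes γ-aminobutyrate, at 843. Enzymes of starch and sucrose metabolism were moderate. Their 57 entries had a median of 7.88 FPKM and a single value at 100 or more, sucrose phosphate synthase 1F (Solyc07g007790.2) at 123.

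The machinery of protein synthesis was abundant through most of its members. Of 289 ribosomal protein entries, 143 (49.5%) were at 100 FPKM or more and 107 from 10 to 100, and 39 were below 10. Their median was 94.2 FPKM, and they held 4.28% of the summed FPKM of the lone entries. The highest 2 entries were Ribosomal protein S14p/S29e (Solyc11g020890.1) at 1325 FPKM and Ribosomal protein S30 (Solyc12g008700.1) at 1309.9. Each gene had further entries, the lowest at 1.21 and 1.61 FPKM in that order, so the level of neither gene is settled. Among the lone entries, the L18e/L15 protein Solyc06g071720.1 was at 817 FPKM and the 60S acidic protein Solyc11g067100.1 at 794. Translation factors, with 103 entries, had a median of 26.2 FPKM and were led by the SUI1 initiation factor Solyc07g064150.2 at 1257 and elongation factor 5A-1 (Solyc03g115650.2) at 932.

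Protein turnover genes were also above the level of the whole. The 195 entries for ubiquitin and the proteasome had a median of 39.9 FPKM, and 50 (25.6%) were at 100 or more. The highest were ubiquitin-conjugating enzymes, which pass ubiquitin to targets. Solyc06g070980.2 stood at 3894 FPKM on a shared locus and Solyc06g007510.2 at 2369.9 as a lone entry. The RUB1 conjugating enzyme 1 (Solyc04g079970.2), which acts on cullin ligases, was at 2241 FPKM. The 42 entries of the KEGG proteasome pathway had a median of 86.1 FPKM and a narrow top, at 262. Ligases that choose the target were lower. The 659 entries with RING or F-box in their annotation had a median of 4.89 FPKM, and 7 (1.06%) were at 100 or more. The highest were the EIN3-binding F box protein 1 entries Solyc12g009560.1 at 314 and Solyc08g060810.2 at 284. Such proteins degrade the ethylene regulator EIN3 in Arabidopsis. The gene Solyc12g009560.1 had 2 entries, so its level is not given by this value alone.

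Energy metabolism showed levels of the same order. The medians were 45.4 FPKM for 31 citrate cycle entries, 32.7 for 135 entries of oxidative phosphorylation and 22.2 for 91 of glycolysis. With 1 entry per gene, the highest, the median of oxidative phosphorylation became 53.5 FPKM. Aconitase 3 (Solyc12g005860.1) at 659 FPKM and cytosolic isocitrate dehydrogenase (Solyc01g005560.2) at 511 led the citrate cycle, and fructose-bisphosphate aldolase 2 (Solyc02g084440.2) at 884 led glycolysis. The iron-sulfur subunit of ubiquinol-cytochrome c reductase (Solyc11g039840.1) was at 885 FPKM.

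Photosynthetic genes were uneven. The 88 entries for photosystems and light harvesting had a median of 11.7 FPKM, 18.3 when loci of 1000 bp or less were left out. Photosystem II subunit R (Solyc07g066310.2) was at 696 FPKM and the ferredoxin 3 entry Solyc11g068430.1 at 417. The 15 light harvesting entries reached only 100.3 FPKM (Solyc10g006230.2), and the small chain of ribulose bisphosphate carboxylase 85.4 (Solyc03g034220.2). Proteins of the kinds that organelle genomes encode had 73 entries on the assembled chromosomes with a median of 0.447 FPKM, and 47 of them were below 1 or at 0. The highest of the 73 was at 988672 FPKM. Without the limit on locus length the median was 0.589 FPKM. That limit left out entries of photosystem II reaction center protein A, the highest being Solyc12g039030.1 at 21950 FPKM on 162 bp.

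Water channels were led by plasma membrane intrinsic protein 1;4 (Solyc08g081190.2) at 1825.5 FPKM, with gamma tonoplast intrinsic protein (Solyc10g083880.1) at 560.3 and plasma membrane intrinsic protein 2 (Solyc11g069430.1) at 539, over a median of 2.91 for 37 entries. Among structural genes, the actin 7 entries were at 1335 (Solyc03g078400.2), 638 (Solyc11g005330.1) and 122 FPKM (Solyc01g104770.2), and the highest tubulins were a Tubulin/FtsZ family protein (Solyc08g006890.2) at 302 and tubulin beta 8 (Solyc06g035970.2) at 284. Chaperones had 188 entries with a median of 16.1 FPKM, of which heat shock protein 70 (Solyc09g010630.2) was highest at 861. The text used for that list missed HEAT SHOCK PROTEIN 81.4 (Solyc07g065840.2) at 1003 FPKM and the DNAJ homologue 2 entries Solyc11g006460.1 at 1439 and Solyc05g055160.2 at 1368. Histones had a median of 11.6 FPKM over 62 entries, and the highest was Solyc11g010230.1 at 645. That median was 32.1 with loci of 1000 bp or less left out, 29.1 without entries at 0 in ABA or NDGA and 18.7 with 1 entry per gene.

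Defence genes had low medians, but not all kinds were low. In the list of 54 chitinase, glucanase and pathogenesis-related entries the median was 1.81 FPKM. In that list 7 (13.0%) were at 100 FPKM or more, against 6.15% of all members. The 15 entries annotated as basic chitinase had a median of 26.5 FPKM, and 4 (26.7%) were at 100 or more. The basic chitinases Solyc10g017970.1 and Solyc10g017980.1, neighbours that share a locus, were at 15366 and 4423. Chitinases cut the chitin of fungal walls. A further basic chitinase, Solyc07g009530.1, had entries at 1643 and 55.5 FPKM. Disease resistance proteins of the NBS type had a median of 0.487 FPKM over 184 entries, and 5 of them lay from 10 to 100. The only higher entry, Solyc11g071430.1 at 366, was doubtful. Cytochromes P450, with 178 entries, had a median of 0.471 FPKM and 98 entries below 1 or at 0, although a family 94 member (Solyc09g066150.1) reached 1135. Transposase texts gave 105 entries with a median of 0.144 FPKM and none above 91.6.

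Large regulatory families sat near or below the level of the whole. The 1222 entries with kinase in their text, which include kinases of small molecules, had a median of 4.22 FPKM, and 34 (2.78%) were at 100 or more. Pentatricopeptide repeat proteins, which process organelle RNA, kept to a narrow range. Of 265 entries, 179 lay from 1 to 10 FPKM, 61 above 0 and below 1, and 24 from 10 to 100, and the highest was at 50.7 (Solyc08g061590.2). Proteins of unknown function, with 845 entries, had a median of 4.86 FPKM.

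The medians of the low lists depended on the many entries near 0. When entries at 0 in ABA or NDGA were left out, they were 0.829 FPKM for transposases, 0.766 for NBS proteins, 1.57 for cytochromes P450 and 1.02 for proteins of organelle genome kinds. In the same way they became 1.38 FPKM for cell wall remodelling, 3.54 for the chitinase and glucanase list and 4.41 for aquaporins, all still below 5.71. Proteins of unknown function came to 7.45 FPKM and the photosystem list to 18.7. The 5.71 FPKM is the median of all members, with no entry left out. With entries at 0 in ABA or NDGA left out, members above 0 had a median of 8.40 FPKM. The list medians of this paragraph still include entries at 0 in CK, so neither 5.71 nor 8.40 FPKM is their exact counterpart.

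**Figure D3:**
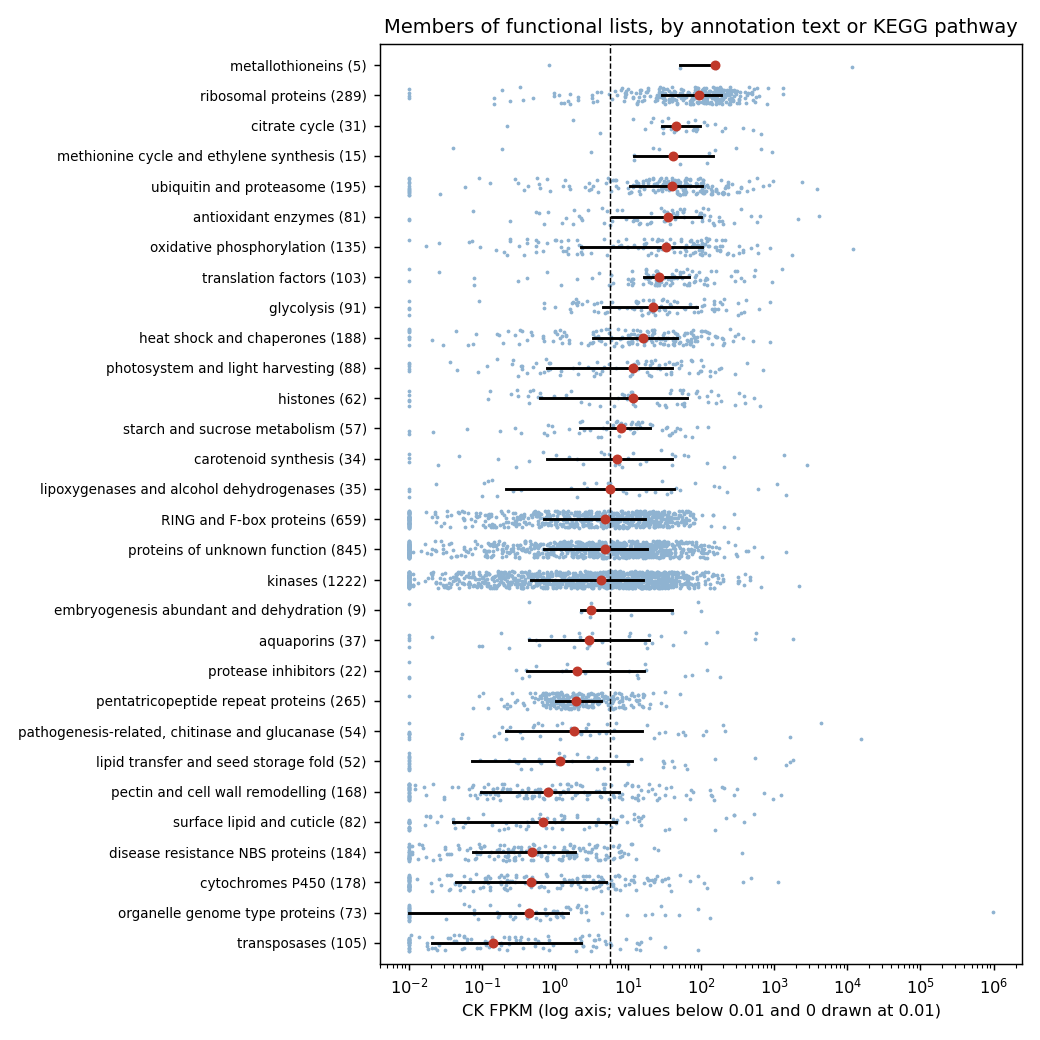
CK FPKM (horizontal log axis) of every entry in the functional lists, as small points, with the median as a red dot and the quartiles as a black bar. Numbers of entries stand in brackets, the dashed line is the median of all members at 5.71 FPKM, and the ribosomal proteins (94.2) and transposases (0.144) lie near opposite ends.

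Transcription factors were lower than the members as a whole. The deposited table of transcription factors gave 1293 members with a median of 3.21 FPKM. Of these, 52 (4.02%) were at 100 or more and 456 (35.3%) below 1 or at 0, against 6.15% and 27.1% of all members. These counts leave out some further entries of the same genes. The G2-like member Solyc12g098370.1 was counted at 3.43 FPKM, and its other entry at 1479, doubtful because it is 0 in ABA and NDGA, was not. Of the 52 members at 100 FPKM or more, 2 were above 1000. The homeodomain GLABROUS 11 entry Solyc09g060140.2 at 2649 FPKM was doubtful, being at 0 in NDGA. The ERF family member Solyc06g063070.2, annotated as related to AP2 12, was at 1458 FPKM. Then came the NAC member Solyc10g006880.2 (881), the homeodomain GLABROUS 8 entry Solyc09g057540.2 on a shared locus (858), the ERF Solyc01g065980.2 (715) and homeobox 1 Solyc03g113270.2 (569). They were followed by the GRAS member Solyc07g052960.1 (538), the NAC member Solyc11g017470.1 on a shared locus (527), the ZF-HD member Solyc02g087970.1 (456) and the YABBY member Solyc06g073920.2 (452). The gene Solyc02g087970.1 had 2 entries, so its level is not given by this value alone.

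Families differed in their usual level. Among families with 10 or more members, the medians were highest for NF-YA (15.4 FPKM, 10 members), C3H (14.4, 44 members), HB-other (13.9, 11 members), ARF (13.4, 20 members) and MYB-related (12.1, 41 members). They were lowest for M-type MADS (0.0845, 13 members), AP2 (0.625, 17 members), GRF (0.957, 11 members) and LBD (0.986, 21 members). The largest families were bHLH with 108 members and a median of 1.23 FPKM, ERF with 100 and 1.52, MYB with 76 and 1.13, C2H2 with 74 and 3.10, and NAC with 68 and 1.31. The MIKC type of MADS factors combined a median of 2.14 FPKM with 7 of 38 members from 100 to 1000.

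**Figure D4:**
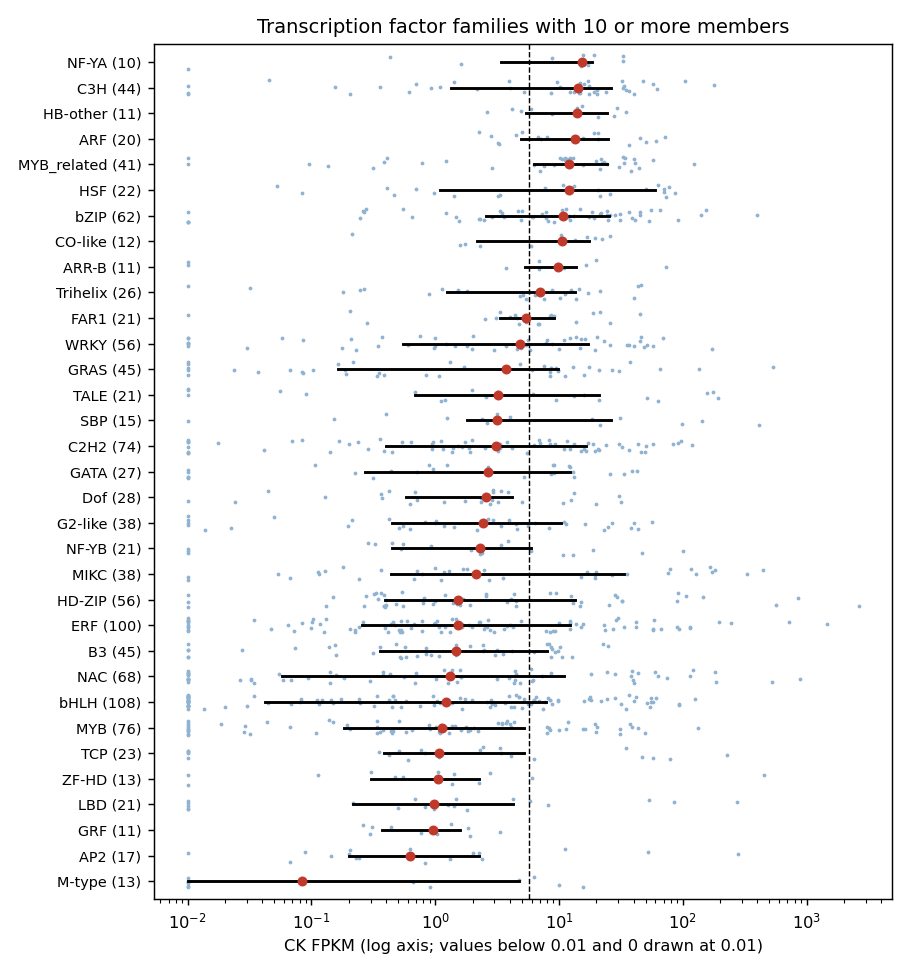
CK FPKM (horizontal log axis) of the members of each transcription factor family with 10 or more members, with the median as a red dot, the quartiles as a black bar and the median of all members as a dashed line at 5.71 FPKM. Family medians run from 0.0845 (M-type) to 15.4 (NF-YA), and single members of several families lie above 100.

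The regulators that the deposited ripening table lists were above most of their families. LeNOR (Solyc10g006880.2), a NAC factor needed for ripening, was at 881 FPKM, LeFUL1 (Solyc06g069430.2) at 446, TAGL1 (Solyc07g055920.2) at 173 and LeFUL2 (Solyc03g114830.2) at 165, the latter 3 being MADS factors. CNR (Solyc02g077920.2), an SBP factor, was at 411 FPKM in the entry listed there and at 181 in its other entry. LeHB-1 (Solyc02g086930.2) was at 89.9 FPKM and MADS1 (Solyc03g114840.2) at 78.2. Of 8 rows of that table, these 7 were members. The other, the MADS factor LeMADS-RIN (Solyc05g012020.2), was left out because its entry names a second gene. The study chose this list for its role in ripening, so its high place among the factors is a description of chosen genes.

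Of the hormone tables, the ABA-related one gave 75 members with a median of 6.10 FPKM, of which 5 were at 100 or more and none above 286. They were a short-chain dehydrogenase/reductase (Solyc12g056600.2) at 286 FPKM, LeNCED1 (Solyc07g056570.1), whose enzyme cleaves a carotenoid towards ABA, at 284 on a locus shared by 26 entries, the glucosyl transferase Solyc01g107830.2 at 282, and the phosphatases HAI2 (Solyc03g007230.2) at 220.0 and PP2CA (Solyc05g052980.2) at 135, which hold ABA signalling down in Arabidopsis. The ABA receptors (PYR/PYL/RCAR), with 15 members, were at most 46.4 FPKM (Solyc08g082180.2). The ethylene-related table gave 86 members with a median of 15.6 FPKM, and 18 (20.9%) were at 100 or more, against 6.15% of all members. Its highest member, Solyc09g089580.2, labelled E8 there, was at 11339 FPKM and doubtful, at 0 in ABA. E4 (Solyc03g111720.2), a peptide methionine sulfoxide reductase, was at 7288 FPKM on a locus with a second entry, and the other 2-oxoglutarate oxygenase Solyc03g095900.2 at 1809.5. The receptor labelled LeETR3/NR (Solyc09g075440.2) was at 572 FPKM and LeETR4 (Solyc06g053710.2) at 389.8.

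Markers of cell types in the annotation text were compared with the labelled pericarp, from which seeds had been removed. Seed storage and oil body genes were split between high and very low levels. Seed storage albumin 5 (Solyc08g080490.2) was at 2557 FPKM and seed storage albumin 1 (Solyc08g080480.2) at 655. Of 13 oleosin entries, the coat proteins of seed oil bodies, 7 were at 100 FPKM or more, led by oleosin 1 (Solyc06g034040.1) at 501 and oleosin3 (Solyc06g060840.1) at 446. The 4 caleosin entries, also of oil bodies, had a median of 3.68 FPKM and a highest value of 18.5. A cupin family protein outside the list (Solyc09g082340.2) was at 1828 FPKM and the RmlC-like cupins Solyc09g025210.2, Solyc09g072560.2 and Solyc09g090150.2 at 1569.6, 1236 and 865, cupins being a fold that includes the seed storage globulins among many other proteins. The whole list of 92 seed marker entries had 19 (20.7%) at 100 FPKM or more, against 6.15% of all members, and 35 (38.0%) below 1 or at 0, against 27.1%. Its median was 2.54 FPKM, or 8.36 without entries at 0 in ABA or NDGA, and it held 1.71% of the summed FPKM of the lone entries. Of the 92, 45 carried a family text shared by lipid-transfer proteins and 2S albumins, so that text alone does not mark seed, and Solyc01g090360.2 at 1665 FPKM was among them. In such bulk tissue, fewer cells of a type and less RNA per cell cannot be told apart, and the part of seed tissue in these levels was not tested.

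The other marker lists had fewer entries at 100 FPKM or more. Green tissue markers, 28 entries, had a median of 10.9 FPKM, or 17.5 without entries at 0 in ABA or NDGA, and none was at 0 in CK. Phloem and xylem markers, 35 entries, had a median of 5.37 FPKM and a highest value of 62.7 (Solyc10g017960.1, phloem protein 2-A13). Pollen markers, 18 entries, had no settled level, with a median of 0.749 FPKM over all, 7.75 without entries at 0 in ABA or NDGA, 8.79 among the lone entries and 0.430 with 1 entry per gene. The only value above 100 was the Ole e 1 and extensin family protein Solyc04g054810.2 at 1451, a text not limited to pollen. Epidermis markers, 21 entries, had a median of 1.00 FPKM, or 0.635 among the lone entries. Protodermal factor 1 (Solyc12g011010.1), named for the outer cell layer in Arabidopsis, was listed at 47507 FPKM in a doubtful entry that is 0 in ABA, and at 1.16 in its second entry. The homeodomain GLABROUS entries Solyc09g060140.2 and Solyc09g057540.2, given above, were the other values above 100 in that list. The other protodermal factor 1 gene, Solyc10g007800.2, was at 5.88. Ripening markers, 33 entries, had a median of 0.715 FPKM, or 1.43 without entries at 0 in ABA or NDGA, and 2 (6.06%) were at 100 or more, expansin A4 and the ethylene-forming enzyme named above. The text search for that list distinguished capitals and so left out both phytoene synthase entries, and 29 of its 33 entries belong to the cell wall list, so it gives no level for ripening genes at large. E8, E4, LeNOR and LeFUL1, described above, are not in it.

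Doubtful entries were common at the bottom and rare in the middle. They made up 26.0% of the members above 0 and below 1 FPKM, 2.00% of those from 1 to 10, 0.324% from 10 to 100, 1.02% from 100 to 1000 and 9.09% above 1000. In CK 1230 of the 1440 were below 1 FPKM, and 25 were at 100 or more. The 10 highest were Solyc12g033020.1, protodermal factor 1 (Solyc12g011010.1), E8 (Solyc09g089580.2), Solyc10g080210.1 and Solyc09g060140.2, all given above, and 5 more. Senescence-associated gene 21 (Solyc09g075210.2) was at 21708 FPKM in CK and at 0 in NDGA. The unannotated Solyc03g013290.1 at 3728 FPKM, another entry of Solyc11g027710.1 at 3000.1 and SIN3-like 1 (Solyc02g087390.1), a corepressor, at 2574 were at 0 in ABA. With no lysine (K) kinase 6 (Solyc00g153680.1) at 2152 FPKM was at 0 in NDGA. The table holds no member at 0 in all groups. Of the 1876 members at 0 in CK, 284 were at 1 FPKM or more in ABA or NDGA and 44 at 100 or more, and a 0 in CK beside such values is doubtful in the same way.

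Among genes listed more than once, the spread between entries was wide. There were 3116 such genes, 2849 of them with 2 entries, 265 with 3 and 2 with 4, and all entries of a gene had the same locus. In the 2720 genes with 2 values above 0, the higher was a median of 3.61 times the lower, with quartiles of 1.93 and 8.90. The ratio was below 2 in 725 genes (26.7%), 10 or more in 603 (22.2%), 100 or more in 50 and 1000 or more in 16. These genes were not spread evenly over the genome. On chromosomes 10, 11 and 12, 42.2% of 5382 members had a gene with several entries, against 22.3% of 18760 members on chromosomes 1 to 9, while the chromosome medians of FPKM ran only from 4.72 (chromosome 2) to 6.61 (chromosome 1). The 217 members on unplaced sequence, chromosome 0, had a median of 1.39 FPKM.

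**Figure D5:**
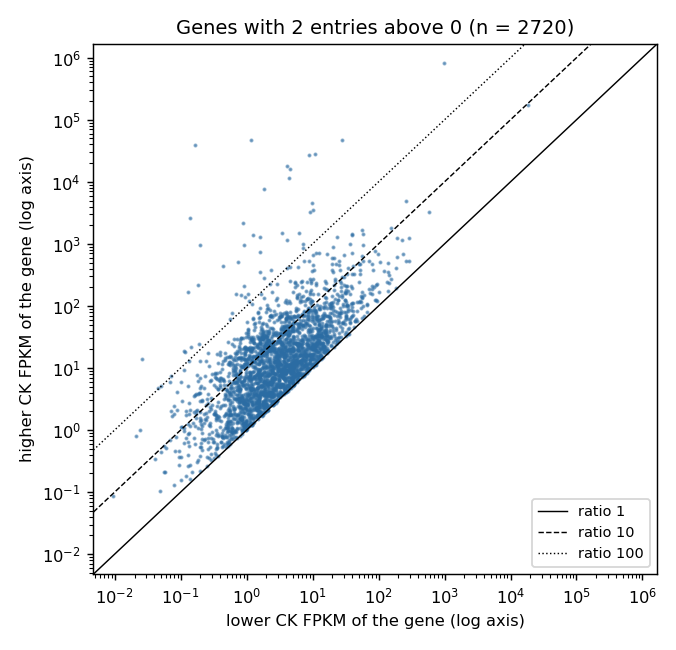
Higher against lower CK FPKM (both log axes) of the 2720 genes with 2 entries above 0, 1 point per gene, with lines at ratios of 1, 10 and 100. Most points lie between ratios 1 and 10, and 603 lie at 10 or more.

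Locus length and annotation varied with level. The median locus length was 1858 bp for members at 0, 2820 below 1 FPKM, 4190 from 1 to 10, 5145 from 10 to 100, 3457 from 100 to 1000 and 3568 above 1000. Across the 22483 members above 0, the Spearman correlation of FPKM with locus length was 0.195, a description over genes that share the same 2 libraries and include introns in their length. A gene ontology term was given for 67.4% of the class from 100 to 1000, 59.8% from 10 to 100, 49.4% from 1 to 10 and 46.3% above 1000. The digit that ends an identifier is the version of its gene model. The 14331 members of version 2 had a median of 8.96 FPKM, against 2.60 for the 10028 of version 1. The versions also differed in genes with several entries, 17.8% of the members of version 2 against 39.3% of version 1.

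The class bounds cut through a continuum. Just below and above 1000 FPKM lay an adenine nucleotide alpha hydrolase-like protein (Solyc01g057000.2) at 999.7 and the unannotated Solyc01g095330.2 at 1001, and the next lower value was 984 (Solyc07g054060.2). Around 100 FPKM were proteasome alpha subunit F1 (Solyc04g080590.2) at 99.97 and the unannotated Solyc11g006360.1 at 100.02. Around 10 FPKM were an erythronate-4-phosphate dehydrogenase (Solyc01g095060.2) at 9.999 and a transcription factor-related protein (Solyc11g068960.1) at 10.001. Around 1 FPKM were alpha carbonic anhydrase 1 (Solyc09g009830.2) at 0.9999 and a Yippee family protein (Solyc03g096160.1) at 1.0004.

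The summed FPKM of the entries left out rested on a few of them. The 7212 entries summed to 18382891 FPKM, 78.6% of the table, but 9 entries without a gene, each at 988672 FPKM or more and 7 of them at 0 in ABA or NDGA, made up most of it. Without these 9 the sum was 4608203 FPKM, below that of the members. The entries without a gene numbered 5894. Of these 5894, 144 were above 1000 FPKM, and the highest was 2840000 FPKM on a stretch of 100 bp of chromosome 10. The 197 entries of 1 gene on 300 bp or less had a median of 1.15 FPKM and 87 at 0, but 11 were above 1000, led by Solyc06g024300.1 at 202342 FPKM on 267 bp. At the length bound itself, Solyc07g063640.1, a wound-responsive family protein of exactly 300 bp, was at 1966 FPKM, and Solyc04g014920.1, of 304 bp, at 85.0. Loci that merge several genes were 1121 entries with a median of 12.1 FPKM. The highest of them, covering Solyc01g099770.2 and Solyc01g099780.2, was at 5968 FPKM, so genes of high level are missing from the ranking wherever their locus was merged with a neighbour.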

How the data were processed

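According to the study's methods and the submitters' processing notes, poly(A) RNA was sequenced, TopHat2 2.0.9 placed the reads on tomato assembly SL2.40, and Cufflinks 2.1.1 turned them into FPKM using ITAG2.3 gene models. Both libraries of a group were then averaged. The deposited tables hold these FPKM means, 1 per entry and group, so no replicate error or test could be computed, library depth was not analysed, and columns of the authors' own calls in the smaller tables were not used. Whether the libraries keep strand is not given in the sources used here, so overlapping genes may share reads. Only the CK column was ranked; ABA and NDGA served to mark values of 0.

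Functional lists were case-sensitive text matches on the annotation or KEGG column, and 2 patterns were corrected after their matches were read. Members, lists and the subset of lone entries were chosen with earlier results of these data known. Named were the 30 highest members, the highest of each list and deposited table, the ripening regulators, the 10 highest doubtful members, those next to each class bound and the highest entries left out; any other gene was chosen with its value known. Gene names are those of the deposited files, since the RefSeq table held 0 of the identifiers. Locus length is end minus start as listed. Python 3.11.15, pandas 2.3.3, numpy 2.4.6, scipy 1.17.1 and matplotlib 3.10.9 were used, and the classing was tested on simulated data.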

Additional observations from a re-analysis of the deposited data

How the results depend on the processing

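Without replicate values, no replicate could be left out. No paired analysis was possible because the files give only 1 mean per group. Changes of up to 1.5 times were counted as within bounds. Of 66 class counts under the alternatives, 53 stayed within that bound, as did 30 of 33 shares of the summed FPKM and 9 of 11 medians of members above 0. Leaving out entries at 0 in ABA or NDGA left 511 members at 0. With only genes of a single entry, 4642 members lay from 1 to 10 FPKM and 76 above 1000. With only loci given for no other entry, these counts were 3749 and 53. After rescaling to a sum of 1000000, 9850 members were above 0 and below 1, 2747 from 10 to 100, 216 from 100 to 1000 and 37 above 1000, and the median was 1.45, because the highest entries set the scale. Without entries of 100000 FPKM or more, the 10 highest held 30.6% of the sum. With expression taken as at least 0.1 FPKM, 2921 members counted as 0. Among the lone entries, a setting chosen after seeing the data, 2359 were above 0 and below 1, 3673 from 1 to 10 and 48 above 1000, the 10 and 100 highest held 27.7% and 42.6%, and the median above 0 was 11.4 FPKM. Of 180 medians of lists, 150 stayed within the bound, and of the 30 that moved, 17 rose when entries at 0 in ABA or NDGA were left out, which removes mostly low entries.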
